A study of Mus musculus with 14 samples.

Results

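The genes described here are 33 interferon-stimulated genes, which cells transcribe when an interferon binds its receptor. They were chosen by symbol, and all of them lie outside the chromosome 16 segment that Ts1Cje mice carry in an extra copy. Of 24559 genes with a probe on the array, all 33 members had one, 11 had several, and the probe with the highest mean raw signal stood for the gene. All 33 were also among the 14161 genes tested, whose probe had to be flagged well above background on all arrays of 1 group or more. Genes of antigen presentation were not members, and neither were Mx1 and Mx2.

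The study measured gene expression in mouse skeletal muscle with 1-colour Agilent arrays, 1 array per sample, in 14 samples on the C57BL/6 background. The groups were EDL muscles of Ts1Cje mice (3 arrays) and of WT mice (3 arrays), and soleus muscles of Ts1Cje mice (4 arrays) and of WT mice (4 arrays). The EDL (extensor digitorum longus) is a fast-twitch muscle of the lower hind limb and the soleus a slow-twitch one. The Ts1Cje strain models Down syndrome: its cells have an additional distal chromosome 16 segment and lack a copy of a short end stretch of chromosome 12. The WT mice are disomic for both. Age, sex and the number of animals were not given in the sources used here, so p-values measure the spread between these samples.

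Type I interferons bind a receptor made of IFNAR1 and IFNAR2, type II interferon binds IFNGR1 and IFNGR2, and type III interferons use IL10RB. The receptors act through the kinases JAK1, TYK2 and JAK2 on STAT transcription factors. STAT2 and IRF9 are parts of a complex that binds the interferon-stimulated response element (ISRE) in the promoters of the induced genes, whose products sense viral RNA, block translation or degrade RNA. In mice, Ifnar1, Ifnar2, Il10rb and Ifngr2 lie together on chromosome 16, in the segment that Ts1Cje mice carry in an extra copy.

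To show the sequence element that the pathway acts on, the promoters of the members were searched in windows from RefSeq (GRCm38.p6) that run from 250 bases before to 50 bases after the start of the gene. Windows were at hand for 26 of the 33 members. The core of the ISRE, read as GAAA, any 2 bases and GAAA again on either strand, stood in the window of 14 of these 26 members, 53.8%, against 3.44% of all 32851 windows. The gamma-activated sequence, TTCNNNGAA, which reads the same on both strands, stood in the window of 9 members, 34.6%, against 8.3% of all windows. Some genes have several windows, and a member was counted if any of its windows held the motif. With only the first listed window of each gene, the gamma-activated sequence stood in 8 members, 30.8%, against 8.47% of genes. The ISRE core then stood in 53.8% of members, against 3.49% of genes. The sequences below are the 250 bases before the start, 5′ to 3′ on the strand of the gene, of the 5 members named in the comparisons whose window holds an ISRE core, with the core in capitals (a core on the other strand reads TTTC, any 2 bases and TTTC).
Oas1a, GRCm38.p6, chr5:120907526-120907775, minus strand: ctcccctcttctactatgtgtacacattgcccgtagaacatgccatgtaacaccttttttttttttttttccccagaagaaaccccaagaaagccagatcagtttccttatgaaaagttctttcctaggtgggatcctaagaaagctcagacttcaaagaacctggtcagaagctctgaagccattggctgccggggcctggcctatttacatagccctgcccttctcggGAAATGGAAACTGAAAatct
Ifit1, GRCm38.p6, chr19:34640639-34640888, plus strand: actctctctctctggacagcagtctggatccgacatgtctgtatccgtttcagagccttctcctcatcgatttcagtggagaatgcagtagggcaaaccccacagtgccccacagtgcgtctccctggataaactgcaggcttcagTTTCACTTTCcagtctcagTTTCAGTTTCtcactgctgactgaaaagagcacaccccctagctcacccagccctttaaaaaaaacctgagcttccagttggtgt
Rsad2, GRCm38.p6, chr12:26456453-26456702, minus strand: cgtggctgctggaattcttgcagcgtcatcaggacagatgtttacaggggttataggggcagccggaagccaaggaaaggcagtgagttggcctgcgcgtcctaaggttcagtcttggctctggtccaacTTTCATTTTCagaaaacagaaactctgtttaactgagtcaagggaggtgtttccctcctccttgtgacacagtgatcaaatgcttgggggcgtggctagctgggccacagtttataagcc
Ifit3, GRCm38.p6, chr19:34583279-34583528, plus strand: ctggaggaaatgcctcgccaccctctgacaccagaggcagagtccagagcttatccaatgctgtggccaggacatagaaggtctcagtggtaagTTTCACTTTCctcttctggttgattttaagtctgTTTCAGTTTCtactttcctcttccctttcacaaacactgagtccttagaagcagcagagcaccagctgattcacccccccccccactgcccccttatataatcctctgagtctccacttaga
Irgm1, GRCm38.p6, chr11:48871421-48871670, minus strand: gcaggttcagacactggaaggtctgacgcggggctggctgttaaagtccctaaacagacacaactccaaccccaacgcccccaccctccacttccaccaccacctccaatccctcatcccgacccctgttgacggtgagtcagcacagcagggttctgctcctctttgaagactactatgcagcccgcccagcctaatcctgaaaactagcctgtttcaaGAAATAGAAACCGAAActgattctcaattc
In Oas1a the 2 cores overlap and begin at positions -20 and -14 from the start, and a gamma-activated sequence begins at -98. In Ifit1 the 2 cores begin at -104 and -85, and in Ifit3 they begin at -156 and -122. The single core of Rsad2 begins at -120. The 2 cores of Irgm1 overlap, as in Oas1a, and begin at -30 and -24. A match of these letters is a description of the window and shows no binding.

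The arrays were of similar quality. The share of the 55681 probes flagged well above background lay between 41.3% and 52.9% per array, 0 probes were saturated, and arrays of the same group had correlations between 0.979 and 0.988 across genes. Slow fibre markers had mean log2 levels between 2.23 and 4.86 in EDL Ts1Cje muscles and between 1.60 and 5.36 in EDL WT muscles, against 9.47 to 9.83 in soleus Ts1Cje muscles and 9.14 to 9.52 in soleus WT muscles, so the muscles differed as labelled. The 14 arrays lay on 2 slides. All 6 EDL arrays and replicate 1 of the soleus Ts1Cje group were on slide 1, and the other 7 soleus arrays were on slide 2. Genotype was therefore balanced on 1 slide in the EDL, while 1 Ts1Cje array of the soleus stood apart from the rest by slide. A level below is log2 of the signal relative to the 75th percentile of the same array, so 0 is that percentile, and a change is a difference of such levels.

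The 4 receptor genes of the segment, which are no members, were higher in Ts1Cje in both muscles. In the soleus Ifnar1 rose by 0.58 ± 0.09 and Ifnar2 by 0.84 ± 0.14 on the log2 scale (SE, n = 4 against 4, limma, adjusted p = 0.022 and 0.0246). Ifngr2, with 0.53 ± 0.11, and Il10rb, with 0.73 ± 0.15, did not pass the test there (adjusted p = 0.0837 for both). In the EDL the log2 changes were 0.47 ± 0.10 for Ifnar1, 0.63 ± 0.16 for Ifnar2 0.56 ± 0.12 for Ifngr2 and 0.31 ± 0.17 for Il10rb, and none passed the test (limma, adjusted p = 0.505, 0.718, 0.505 and 1). Over both muscles the mean effect passed the test for Ifnar1 at 0.53 ± 0.07, Ifnar2 at 0.73 ± 0.10 and Ifngr2 at 0.55 ± 0.08 (limma, adjusted p = 0.00633, 0.0076 and 0.0116), and not for Il10rb at 0.52 ± 0.11 (adjusted p = 0.117).

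In the EDL, 29 of the 33 members were higher in Ts1Cje than in WT, where 50% of all genes tested were higher. The members' median log2 change was 0.21, with quartiles of 0.09 and 0.44, against a median of 0 for all genes and quartiles of -0.09 and 0.10. The oligoadenylate synthetase gene Oas1a, the RNA sensor gene Dhx58 and the IFIT gene Ifit3 had the smallest p-values. By limma with Benjamini-Hochberg adjustment over all genes, 0 members were called, where 0.00706% of all genes were called higher and 0% lower. At an unadjusted p under 0.05 there were 2 members, Oas1a and Dhx58, against 2.87% of all genes. Dhx58 passed the filter on dim probes through the Ts1Cje groups alone, the groups in which it was higher, so its place in this and the following counts and rankings is no independent support. In 4 members, Oas1a, Dhx58, Ifit3 and Bst2, all 3 Ts1Cje arrays lay above all 3 WT arrays, which held for 2.84% of all genes, and 0 members lay the other way, against 2.77% of all genes.

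Oas1a encodes an enzyme that makes 2′-5′ oligoadenylates on double-stranded RNA and so switches on RNase L. Its probe is at chr5:121346735-121346794 (mm9). Its log2 level was -0.60, 0.58 and -0.15 in EDL Ts1Cje replicates 1 to 3, against -1.27, -1.42 and -0.66 in the EDL WT replicates. All 3 Ts1Cje values lay above the WT values, though Ts1Cje replicate 1 was close to WT replicate 3. The log2 change was 1.06 ± 0.35 (SE), a 2.08-fold higher level (limma, adjusted p = 1). The second probe of the gene, which was dimmer, gave a log2 change of 1.20.

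Dhx58 encodes LGP2, a helicase that binds viral RNA and modulates the sensors RIG-I and MDA5. Its log2 level was -1.79, -1.77 and -2.33 in EDL Ts1Cje replicates 1 to 3, against -2.80, -2.79 and -3.05 in the EDL WT replicates. The groups did not overlap, and the gene was near the detection limit, since 3 of 3 Ts1Cje arrays and 1 of 3 WT arrays had it well above background. The log2 change was 0.92 ± 0.33 (limma, adjusted p = 1). With normexp background correction it was 0.21.

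Ifit3, an IFIT gene whose protein joins IFIT1 on viral RNA that lacks host cap marks, had log2 levels of -0.35, 0.72 and 0.22 in EDL Ts1Cje replicates 1 to 3. The EDL WT replicates had -0.38, -0.59 and -0.59, so the groups did not overlap but Ts1Cje replicate 1 lay just above the highest WT array. Its log2 change was 0.72 ± 0.33 (limma, adjusted p = 1). Oas2, a second oligoadenylate synthetase gene, had log2 levels of -0.05, 0.74 and 0.78 in EDL Ts1Cje replicates 1 to 3, against 0.13, 0.02 and -0.01 in the EDL WT replicates. Here Ts1Cje replicate 1 was the lowest of the 6 arrays and the other 2 Ts1Cje arrays were the highest, and the log2 change was 0.44 ± 0.21 (limma, adjusted p = 1).

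The next members by p in the EDL were Rsad2, Ifit2, Oasl2 and Ifit1, with log2 changes of 0.65 ± 0.33, 0.52 ± 0.27, 0.49 ± 0.26 and 0.57 ± 0.34. Rsad2 encodes viperin, which makes a chain-terminating nucleotide, and Oasl2 encodes a relative of the oligoadenylate synthetases. Each had an adjusted p of 1. With normexp background correction these changes were 0.28, 0.23, 0.28 and 0.15, and those of Oas1a, Ifit3 and Oas2 were 0.50, 0.41 and 0.28. The 4 members that were lower in Ts1Cje were close to 0, down to -0.07.

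**Figure D1:**
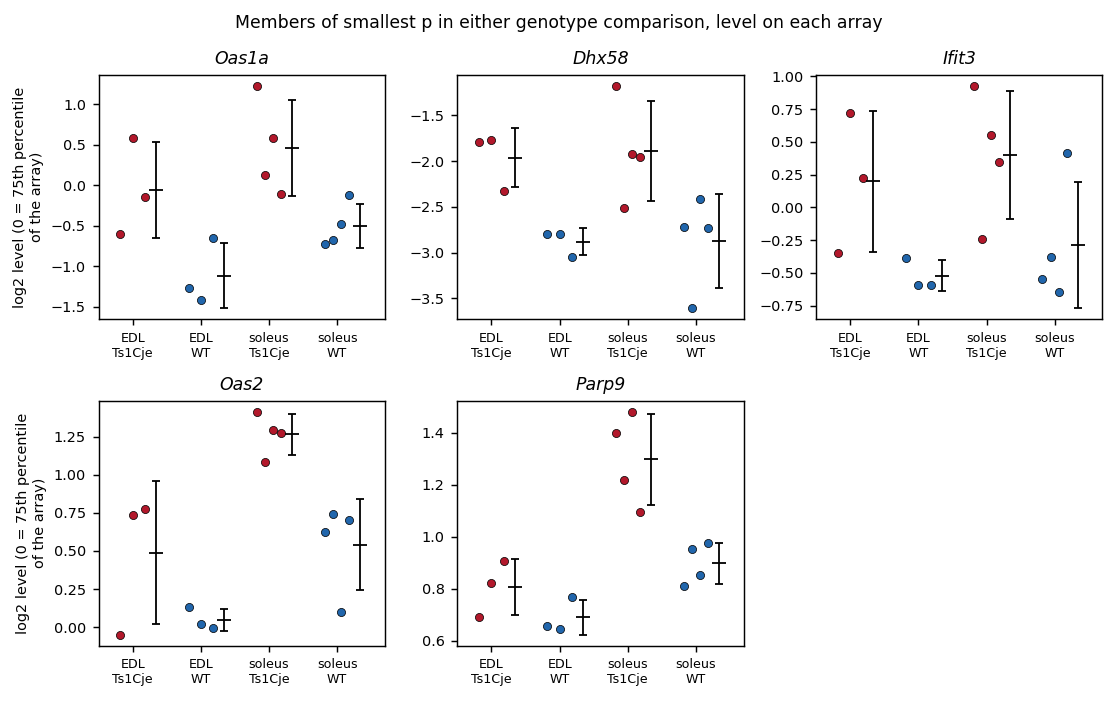
Level of the 5 members that hold the 3 smallest p-values of either muscle, as log2 signal relative to the 75th percentile of the array, on each of 14 arrays, with Ts1Cje in red and WT in blue; bars give the mean and SD of the group. Oas1a does not overlap between genotypes in either muscle, Dhx58 and Ifit3 do not in the EDL, and Oas2 and Parp9 do not in the soleus.

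In the soleus, 31 of the 33 members were higher in Ts1Cje than in WT, where 62.7% of all genes tested were higher. The members' median log2 change was 0.38, with quartiles of 0.17 and 0.55, against a median of 0.07 for all genes and quartiles of -0.09 and 0.20. Parp9, Oas2, Dhx58 and Oas1a had the smallest p-values. By limma, 0 members were called at an adjusted p under 0.05, and the smallest was 0.187, while 0.177% of all genes were called higher and 0.0706% lower. At an unadjusted p under 0.05 there were 11 members, against 13.6% of all genes. In 6 members, Parp9, Oas2, Oas1a, Ifi44, Usp18 and Ifit1, all 4 Ts1Cje arrays lay above all 4 WT arrays, which held for 6.12% of all genes, and 0 members lay the other way, against 2.28% of all genes.

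Parp9, which encodes an inactive member of the PARP family that partners the ubiquitin ligase DTX3L, lies on chromosome 16 at chr16:35972577-35972636 (mm9). The segment with the receptor genes lies farther along the chromosome, with Ifnar2 at chr16:91394044-91394103. Its log2 level was 1.40, 1.22, 1.48 and 1.09 in soleus Ts1Cje replicates 1 to 4, against 0.81, 0.95, 0.85 and 0.97 in the soleus WT replicates. All Ts1Cje arrays lay above all WT arrays, and the narrow spread within groups gave the smallest p of the members at a modest log2 change of 0.40 ± 0.10, or 1.32-fold (limma, adjusted p = 0.187). A second Parp9 probe, well above background on 4 of 14 arrays, gave -0.69.

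Oas2 in the soleus had log2 levels of 1.41, 1.08, 1.29 and 1.27 in soleus Ts1Cje replicates 1 to 4, against 0.63, 0.74, 0.10 and 0.70 in the soleus WT replicates. The Ts1Cje arrays were close together and above all WT arrays, and the log2 change was 0.72 ± 0.19, or 1.65-fold (limma, adjusted p = 0.196). Dhx58 had log2 levels of -1.17, -2.51, -1.92 and -1.96 in soleus Ts1Cje replicates 1 to 4, against -2.72, -3.61, -2.42 and -2.74 in the soleus WT replicates. Here Ts1Cje replicate 2 fell within the WT range, and 4 of 4 Ts1Cje and 2 of 4 WT arrays had the gene well above background. The log2 change was 0.98 ± 0.28 (limma, adjusted p = 0.247), and with normexp background correction it was 0.22.

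Oas1a had log2 levels of 1.23, 0.13, 0.59 and -0.11 in soleus Ts1Cje replicates 1 to 4, against -0.73, -0.68, -0.48 and -0.13 in the soleus WT replicates. Ts1Cje replicate 4 and WT replicate 4 nearly met, and replicate 1 of Ts1Cje, the array on slide 1, was the highest. The log2 change was 0.96 ± 0.31, or 1.95-fold (limma, adjusted p = 0.276). Its second probe gave 0.53. Without Ts1Cje replicate 1 the log2 change of the first probe was 0.71.

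The next members by p in the soleus were Ifi44 (0.69 ± 0.23), Usp18 (0.55 ± 0.19), Ifit1 (0.80 ± 0.29) and Rsad2 (0.74 ± 0.28), given as log2 changes with SE, and their adjusted p lay between 0.281 and 0.316. With normexp background correction they were 0.24, 0.23, 0.23 and 0.42, and Oas1a was at 0.54. Usp18 encodes the enzyme that takes ISG15 off its targets and that also damps signalling at IFNAR2. IFIT1 binds viral RNA that lacks the cap marks of the host, and Ifi44 is an induced gene of less settled function. Trim25, which encodes a ubiquitin ligase that acts on RIG-I, was lower in Ts1Cje with a log2 change of -0.39 ± 0.23, but its second probe gave 0.21. Adar, which encodes an RNA-editing enzyme, was at -0.03, and its second probe gave 0.22.

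**Figure D2:**
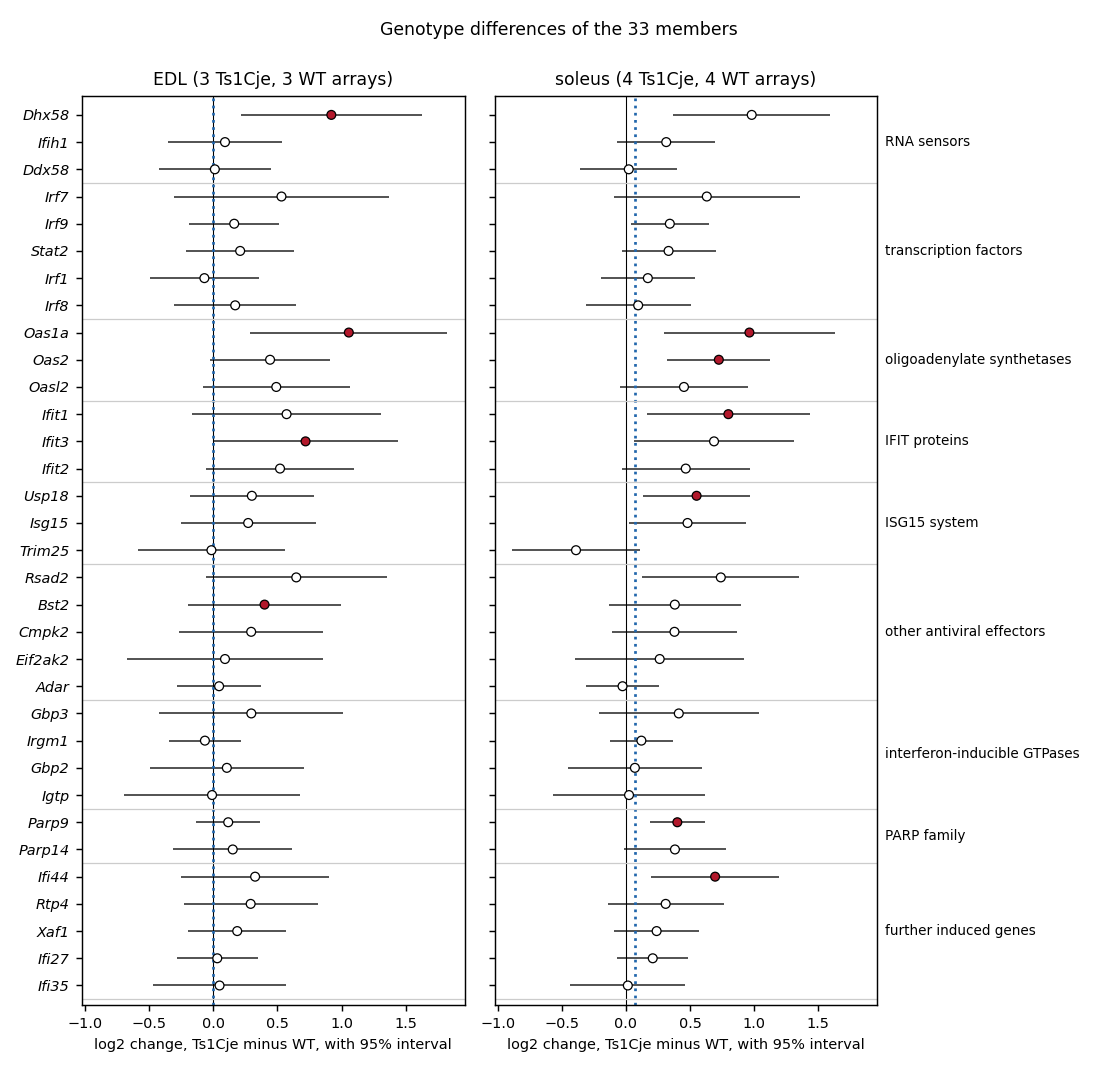
Log2 change of each member, Ts1Cje minus WT, with the 95% interval of the fit, in the EDL (left) and the soleus (right), ordered by role; filled points mark members whose Ts1Cje and WT arrays do not overlap, and the dotted line is the median of all genes tested. Most points lie right of 0 in both muscles, with the largest values for Oas1a and Dhx58, and most intervals include 0.

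The members did not stand at equal values across their roles. A grouping of the 33 genes by role, made with their values known, put the oligoadenylate synthetases and the IFIT genes highest in the main fit. With normexp background correction the EDL changes of these genes were smaller, as given above, and medians by role were not taken with that correction. Among the sensors of viral RNA, the medians of the log2 changes were 0.09 in the EDL and 0.31 in the soleus. Dhx58 was at 0.92 in the EDL and 0.98 in the soleus, while Ddx58, which encodes RIG-I, was at 0.01 in the EDL and 0.02 in the soleus. Ifih1, which encodes MDA5, was at 0.09 in the EDL and 0.31 in the soleus. Among the 5 transcription factor genes the medians were 0.17 in the EDL and 0.33 in the soleus, and the highest was Irf7, the factor that amplifies type I interferon production, at 0.53 ± 0.39 in the EDL and 0.63 ± 0.34 in the soleus. Irf7 was well above background on 12 of 14 arrays. Stat2 and Irf9, partners in the complex that binds the ISRE, were at 0.21 and 0.16 in the EDL and at 0.33 and 0.34 in the soleus.

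Among the antiviral effectors, the 3 oligoadenylate synthetase genes had medians of 0.49 in the EDL and 0.72 in the soleus, and the 3 IFIT genes 0.57 and 0.69. Isg15, whose ubiquitin-like product is attached to other proteins, was at 0.27 ± 0.24 in the EDL and 0.48 ± 0.21 in the soleus. Rsad2, Cmpk2, Bst2, Eif2ak2 and Adar, the 5 other effector genes, had medians of 0.30 in the EDL and 0.38 in the soleus. Bst2, which encodes tetherin, a protein that holds budding virus at the cell surface, had EDL log2 levels of 1.85, 2.33 and 2.31 in Ts1Cje replicates 1 to 3, against 1.80, 1.72 and 1.77 in the WT replicates. In contrast, the 4 interferon-inducible GTPase genes, Gbp2, Gbp3, Igtp and Irgm1, had medians of 0.05 in the EDL and 0.09 in the soleus, with a highest value of 0.41 for Gbp3 in the soleus. The PARP genes Parp9 and Parp14 had medians of 0.13 in the EDL and 0.39 in the soleus. Ifi27, Ifi35, Ifi44, Rtp4 and Xaf1, the 5 further induced genes, had 0.19 and 0.24, with Ifi35 close to 0 in both muscles at 0.05 and 0.01. The inducible GTPases act on vacuoles that hold microbes and are strongly induced by type II interferon in mice. Members with an ISRE core in the window had median log2 changes of 0.24 in the EDL and 0.36 in the soleus (14 members), against 0.18 and 0.29 for those without it (12 members), a difference that was not tested.

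Most members varied together from array to array, with exceptions such as Trim25, and the Ts1Cje arrays differed in how far they lay above WT. Set against the WT mean of the same muscle, the members' median was -0.10, 0.48 and 0.39 on EDL Ts1Cje replicates 1 to 3, against 0.03, -0.03 and -0.07 on the EDL WT replicates. It was 0.66, 0.06, 0.26 and 0.30 on soleus Ts1Cje replicates 1 to 4, against -0.02, -0.03, -0.13 and 0.16 on the soleus WT replicates. The median of all genes stayed between -0.04 and 0.09 on every array. So EDL Ts1Cje replicate 1 lay at the level of WT, with 13 of 33 members above the WT mean, while replicates 2 and 3 had 30 and 31 above it. Of all genes tested, 51.2%, 44.5% and 56.3% lay above the WT mean on EDL Ts1Cje replicates 1 to 3. In the soleus, Ts1Cje replicate 1 had 33 of 33 members above the WT mean, against 60.5% of all genes. It was the highest of the 8 arrays for 26 members, against 19.6% of all genes. Soleus Ts1Cje replicate 2 had 21 members above the WT mean, against 59% of all genes. Soleus WT replicate 4 also had 29 of 33 members above the WT mean, against 54.6% of all genes.

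**Figure D3:**
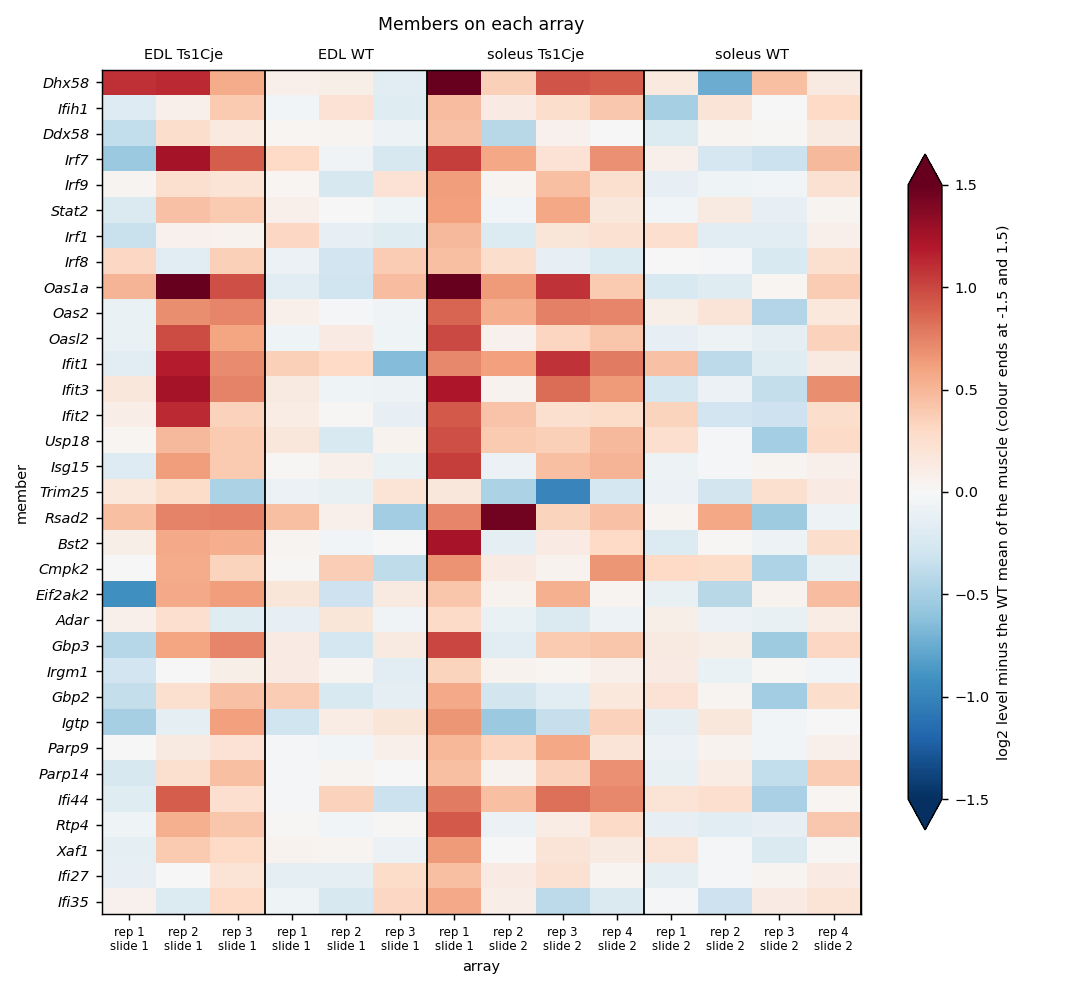
Log2 level of each member (rows, by role) minus the WT mean of the same muscle on each of the 14 arrays (columns), with red above and blue below the WT mean. Columns differ as a whole: soleus Ts1Cje replicate 1 is red for all 33 members, and EDL Ts1Cje replicate 1 is pale or blue for most of them.

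Across arrays of the EDL (n = 6, both genotypes) the median correlation between pairs of members was 0.545, and 82% of 528 pairs were above 0. Across arrays of the soleus (n = 8) it was 0.605, with 94.7% of pairs above 0. These arrays share genotype and slide differences, and no value for pairs of other genes was set beside them. The values are given as a description. In the EDL, Oas2 and Rtp4 followed the median of the other members most closely, with correlations of 0.99 and 0.989. In the soleus these were Oasl2 and Ifit3, with 0.992 and 0.942. Rtp4, a chaperone gene for membrane receptors, lies on chromosome 16 too, at chr16:23613668-23613727 (mm9), outside the segment with the receptor genes. Across the 7 Ts1Cje arrays of both muscles, 8 members lay above the WT mean on every array: Ifit2, Ifit3, Irf9, Oas1a, Rsad2, Usp18, Dhx58 and Parp9. No share of all genes was set beside this count, so it is a description only.

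Leaving out EDL Ts1Cje replicate 1 put the members' median in the EDL at 0.43, with 32 of 33 members higher and 11 at an unadjusted p under 0.05, and leaving out replicate 2 put it at 0.13. Leaving out soleus Ts1Cje replicate 1 kept the 7 soleus arrays of slide 2 and put the soleus median at 0.25, with 26 of 33 members higher and 9 at an unadjusted p under 0.05. By limma, 0 members were called in either muscle in any of these fits. Slide and array cannot be told apart for that replicate.

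**Figure D4:**
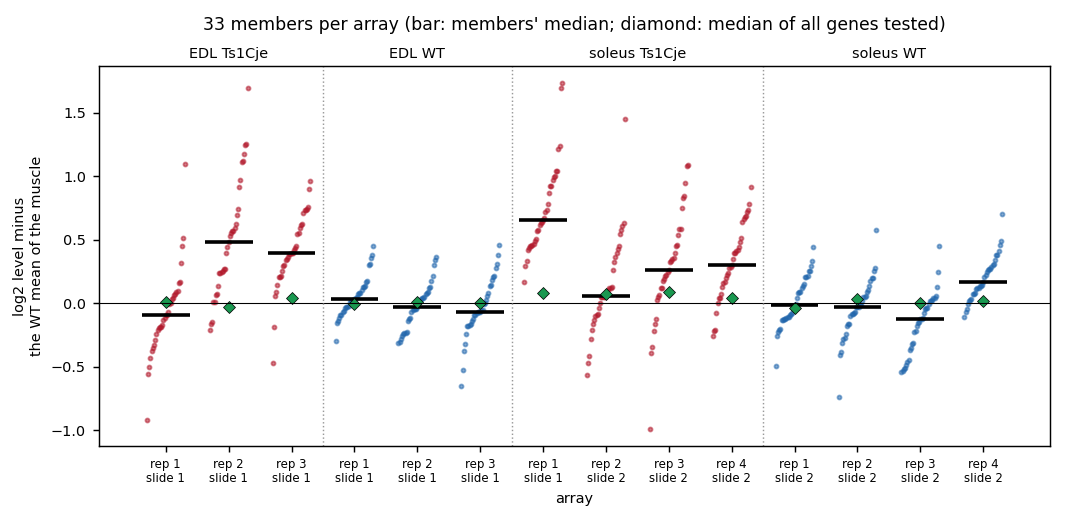
Each point is a member's log2 level minus the WT mean of the same muscle, drawn per array; bars give the members' median and diamonds the median of all genes tested. The members' median is 0.48 and 0.39 on EDL Ts1Cje replicates 2 and 3 and 0.66 on soleus Ts1Cje replicate 1, and -0.10 on EDL Ts1Cje replicate 1.

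Most macrophage markers were also higher in Ts1Cje. Of 10 tested macrophage markers, 8 were higher in Ts1Cje in the EDL and 9 in the soleus, with median log2 changes of 0.19 and 0.15 and 0 called. Their mean log2 level was 0.97, 1.15 and 0.99 on EDL Ts1Cje replicates 1 to 3, against 0.67, 0.80 and 0.97 on the EDL WT replicates. It was 1.85, 1.39, 1.37 and 1.22 on soleus Ts1Cje replicates 1 to 4, against 1.30, 1.23, 1.19 and 1.40 on the soleus WT replicates, so the array that was highest for most members was also highest for macrophage markers. The same array was the highest of the 8 soleus arrays for the mean of the fibroblast, endothelium, red blood cell, adipocyte and slow fibre markers and of the housekeeping genes, so this was not particular to macrophages. EDL Ts1Cje replicate 1, low for the members, was not low for macrophage markers, while its mean for adipocyte markers was the lowest of the EDL arrays. Cd163 was not well above background on any array. In whole muscle, more cells of a type and more RNA per cell cannot be told apart, and the part of macrophages in the members' values was not tested. Some lymphocyte markers were well above background on 0 of 14 arrays: Cd3d, Cd3g, Cd8a (T cells), Klrb1c, Ncr1 (NK cells) and Ms4a1 (B cells). Others were so on 14 of 14: Cd3e, Cd4 (T cells), Nkg7, Prf1 (NK cells) and Cd79a (B cells). In each muscle, 1 of 4 tested T cell, 1 of 3 NK cell, 1 of 3 dendritic cell and 0 of 2 neutrophil markers were higher in Ts1Cje. Of 3 tested B cell markers, 2 were higher in the EDL and 1 in the soleus. In these lists 0 markers were called by genotype. Fast fibre markers moved with genotype in the soleus: Myh4, Pvalb and Actn3 fell, with log2 changes of -4.12, -1.86 and -1.95 (limma, adjusted p = 0.00648, 0.0032 and 0.0132). The mean log2 level of the 6 fast fibre markers there lay between 7.47 and 7.93 in Ts1Cje and between 8.63 and 9.29 in WT, and its part in the members' values was not tested. In the EDL these markers had a median log2 change of 0.03. Slow fibre markers were higher in 0 of 6 cases in the EDL (median -0.65) and in 6 of 6 in the soleus (median 0.20), and adipocyte markers in 0 of 3 in the EDL (median -0.45) and 3 of 3 in the soleus (median 0.70), with 0 called in either list. The part of these cells in the members' values was not tested.

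No member's genotype effect passed the test of a difference between the muscles. The members' median difference, EDL effect minus soleus effect, was -0.09, against -0.07 for all genes, and it was below 0 for 23 of 33 members. It was above 0 for the other 10, as for 38.1% of all genes. By limma, 0 members were called, with a smallest adjusted p of 0.987, and 0% of all genes were called in either direction. At an unadjusted p under 0.05 there were 0 members and 3.18% of all genes. The smallest p-values belonged to Parp9, with a difference of -0.28 (95% interval -0.61 to 0.05), Irgm1 at -0.19 (-0.56 to 0.19), Trim25 at 0.38 (-0.39 to 1.14) and Ifi44 at -0.37 (-1.13 to 0.40). These intervals are wide, and they hold both no difference and differences as large as the effects themselves. The median difference was 0.07 without EDL Ts1Cje replicate 1 and 0.04 without soleus Ts1Cje replicate 1.

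The mean of both effects used all 14 arrays. Here 32 of 33 members were higher in Ts1Cje, against 58.3% of all genes, with a median log2 change of 0.27 against 0.03 for all genes. The mean effects of smallest p were Dhx58 at 0.95 ± 0.22, Oas1a at 1.01 ± 0.23, Oas2 at 0.58 ± 0.14 and Parp9 at 0.26 ± 0.08, with adjusted p of 0.144, 0.157, 0.199 and 0.313 by limma. With normexp background correction the mean effect of Dhx58 was 0.21 (adjusted p = 0.905) and that of Oas1a 0.52 (adjusted p = 0.191), and Dhx58 had entered the test through the Ts1Cje groups alone. So 0 members were called, where 0.261% of all genes were called higher and 0.0282% lower. At an unadjusted p under 0.05 there were 14 members, against 9.46% of all genes. Without EDL Ts1Cje replicate 1, the mean effect of Oas2 was 0.72 and passed the test (adjusted p = 0.0264).

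Other genes of the pathway had smaller medians. Of a list of 52 further interferon-stimulated genes that are no members, 43 were tested, and 33 were higher in Ts1Cje in the EDL and 34 in the soleus. Their median log2 changes were 0.11 and 0.16, and 0 were called in either muscle. The highest were Cxcl9, a chemokine gene, at 1.38 in the EDL (adjusted p = 1) and the antiviral GTPase gene Mx2 at 1.22 in the soleus (adjusted p = 0.146). Mx2 was left out of the members as a gene of the triplicated segment, so its value is not that of a gene with the usual copy number. Mx1 was among the genes of this list that were not tested. Of 30 genes of interferon induction and signalling, 22 were tested. They include the receptor genes of the triplicated segment, which were higher in both muscles and do not have the usual copy number. Of the 22 genes, 13 were higher in Ts1Cje in the EDL and 19 in the soleus, with medians of 0.06 and 0.23. In the soleus 2 were called, the Ifnar1 and Ifnar2 given above. Tlr3 and the interferon genes Ifnb1, Ifna2, Ifna4, Ifng and Ifnk were among the 8 genes not tested. The 17 housekeeping genes had medians of 0.03 in the EDL and 0.06 in the soleus, with 0 called.

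Between the muscles, most members were lower in the EDL than in the soleus. In Ts1Cje mice 29 of 33 members were lower in the EDL, and 4 higher, where 51.2% of all genes were higher, with a median log2 change of -0.29 against 0.01 for all genes. In WT mice 26 of 33 were lower and 7 higher, where 56.5% of all genes were higher, with a median of -0.19 against 0.07. In Ts1Cje mice, Ifi27, Parp9 and Oas2 fell (EDL minus soleus -0.68 ± 0.14, -0.49 ± 0.11 and -0.78 ± 0.20, limma, adjusted p = 0.00258, 0.00457 and 0.0116), where 12.4% of all genes were called lower. Trim25 rose (0.76 ± 0.25, adjusted p = 0.0354), where 17.5% of all genes were called higher, but its second probe gave -0.17, its arrays overlapped between muscles, and the call held under 6 of 14 alternatives (changes of 0.20 to 0.99). The call of Oas2 was lost without EDL Ts1Cje replicate 1 (-0.51, adjusted p = 0.0532) and with slide as a block (-0.92, adjusted p = 0.0671). In WT mice Ifi27 fell (-0.50 ± 0.14, adjusted p = 0.0146, and 0.0647 and 0.0643 without EDL WT replicates 1 and 2), where 9.77% of all genes were called lower and 20.1% higher, and 0 members were called higher. Ifi27, a gene for a small mitochondrial membrane protein, had mean log2 levels of 4.04 ± 0.16 in EDL and 4.72 ± 0.18 in soleus of Ts1Cje mice, and of 4.01 ± 0.24 in EDL and 4.51 ± 0.11 in soleus of WT mice (SD, n = 3 and 4). At an unadjusted p under 0.05 there were 9 members in Ts1Cje mice and 3 in WT mice, against 41.8% and 40.6% of all genes. In Ts1Cje mice 4 members had all EDL arrays below all soleus arrays and 0 had them above, against 14.9% and 20.4% of all genes. In WT mice these were 4 and 2 members, against 13.1% and 25.8%. The shares of members called were below those of all genes. Of the 22 induction and signalling genes tested, 4 were called higher and 6 lower in Ts1Cje mice, and 3 higher and 1 lower in WT mice. Among them Jak1 and Ifngr2 rose (EDL minus soleus 1.02 and 0.70 in Ts1Cje, 1.16 and 0.68 in WT) and Mavs, the adaptor of the RNA sensors, fell (-1.56 in Ts1Cje, -1.19 in WT), and Sting1, an adaptor of DNA sensing, fell in Ts1Cje (-0.85, adjusted p = 0.0138). Of the 43 further interferon-stimulated genes, 2 were called higher and 3 lower in each genotype. Ifi203 fell (-0.81 in Ts1Cje, -0.43 in WT) and Irgm2 rose (0.67 and 0.64). Of the 17 housekeeping genes, 3 were called higher and 2 lower in Ts1Cje mice, and 4 higher and 1 lower in WT mice. Gapdh (0.90 in both genotypes) and Pgk1 (1.75 in Ts1Cje, 1.42 in WT), of glycolysis, rose, and Gusb fell (-0.32 in both).

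In WT mice each muscle lay on its own slide, so muscle and slide cannot be told apart. In Ts1Cje mice soleus replicate 1 shared slide 1 with the EDL arrays, and with slide as a block the members' median was -0.70, with 6 members called lower and 0 higher. This value rests on that single soleus array.

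**Figure D5:**
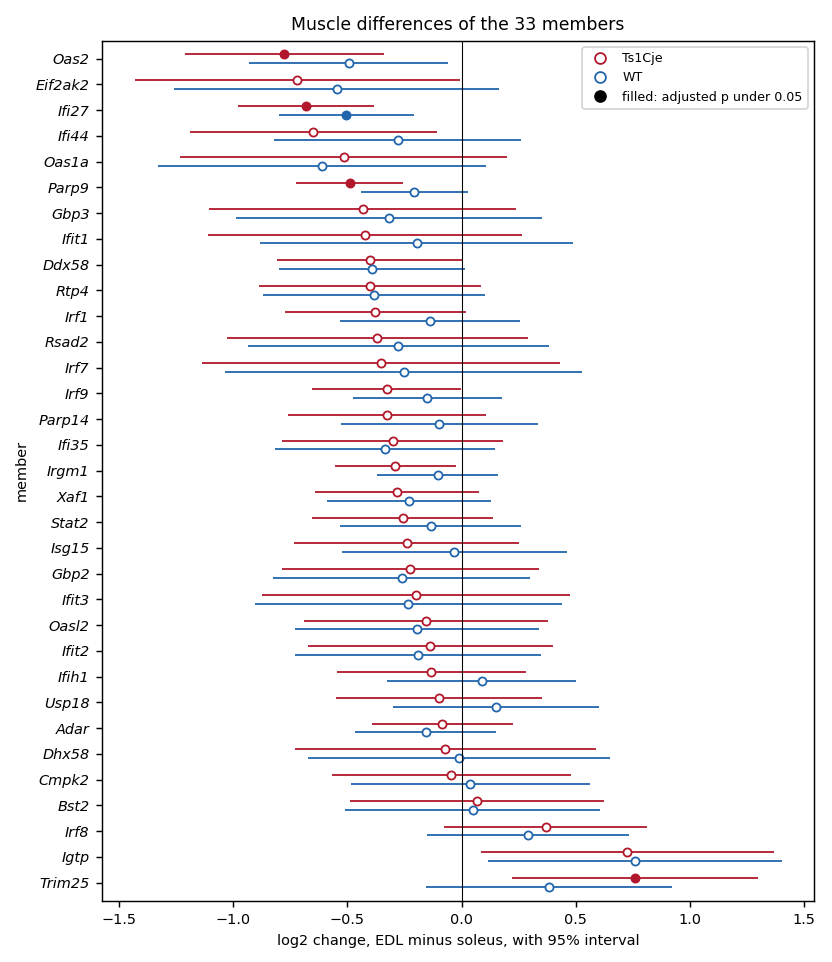
Log2 change of each member between muscles, EDL minus soleus, with the 95% interval of the fit, in Ts1Cje (red) and WT (blue) mice; filled points passed an adjusted p of 0.05. Most members lie left of 0 in both genotypes, and the filled points are Oas2, Ifi27, Parp9 and Trim25 in Ts1Cje and Ifi27 in WT.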

How the data were processed

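RNA of 14 muscle samples was hybridised with Cy3 to 1-colour Agilent arrays, 1 sample per array. Per the file headers, the deposited intensity values were extracted with Agilent Feature Extraction 11.5.1.1, while the submitters' processing notes name version 9.1; the processed intensity is background-subtracted. The deposited flags, another kind of column, mark spots as well above background or saturated. The authors' deposited table holds log2 values scaled to the 75th percentile and centred on each probe, and served as an alternative.

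Here log2 of the processed intensity was taken relative to the 75th percentile of each array, control spots were left out, and 1 probe per symbol was kept, that of highest mean raw signal. Symbols were updated through RefSeq (2138 changed). Probes flagged well above background on all arrays of 1 group or more were fitted with limma 3.58.1 in R 4.3.3 (1 mean per group over all 14 arrays, eBayes, 10 residual degrees of freedom), with Benjamini-Hochberg adjustment over 14161 genes and calls at an adjusted p under 0.05. The script was tested on simulated data. Background correction by normexp (offset 50) used the median spot signal, since the files hold no mean signal.

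The members, the gene lists and the grouping by role were chosen with earlier results of these data known. Genes named are the called members and the 8 of smallest p in each genotype comparison, the 4 of smallest p in the difference and mean of effects, and the called members between muscles, with up to 4 called genes of each other list. Same-numbered EDL arrays deviated together (correlations 0.40, 0.116 and 0.315), against -0.316 to -0.03 for EDL arrays of different number. The design text of the study speaks of pairs of littermates. The labels do not say that a number marks a pair, and a correlation alone cannot show one. The main fit used no pairs, and a replicate block was run as an alternative.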

Additional observations from a re-analysis of the deposited data

Results flagged for a closer look

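Of 66 tests of a member's spread among 4 soleus arrays, 3 found 1 array far from the other 3 by Dixon's criterion, and chance alone would flag about 1 in 20. Irgm1 had a log2 level of 1.792 on soleus Ts1Cje replicate 1, against 1.534 on the nearest array of its group. This is the soleus array on slide 1 and the highest of the 8 soleus arrays for 26 members, against 19.6% of all genes. Oasl2 had 0.373 on soleus WT replicate 4, against -0.044 on the nearest WT array. Rtp4 had 1.55 on the same WT array, against 1.017 on the nearest. On that array 29 of 33 members lay above the WT mean of the muscle, against 54.6% of all genes. The median deviation of the members there was 0.16.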

How the results depend on the processing

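The count of 0 members called in each genotype comparison held under every alternative run, except that 1 member, Oas2, was called higher in the mean of both effects without EDL Ts1Cje replicate 1 (range over arrays left out 0 to 1). The members' median in the EDL ranged from 0.125 to 0.434 over arrays left out. Between muscles in Ts1Cje mice, 6 members were called lower with normexp and 6 with slide as a block (median -0.698), against 3. The count called higher was 0 with quantile normalization, without a filter on dim probes, with the mean of the gene's probes and with slide as a block, and ranged from 0 to 2 over arrays left out, against 1. In WT mice the count called lower ranged from 0 to 2 over arrays left out, against 1; it was 0 without EDL WT replicate 1 or 2. The causes were not tested. With the replicate block, 0 members were called in either muscle, the EDL median was again 0.21, and no call of a member changed in the 4 genotype comparisons; the block was not run between muscles; same-numbered soleus arrays did not deviate together (correlations -0.291 to 0.008). Over all genes, the EDL call count was 1, against 3 with quantile normalization or a trended robust variance and 2 without the filter. The soleus count was 35, against 23 with the mean of probes, 18 with slide as a block, 15 with normexp, 7 with the replicate block, 6 without the filter, 4 in a fit of the soleus alone and 1 within slide 2. The count for the mean of effects was 41, against 22 with normexp, 21 without the filter and 5 with the replicate block. Between muscles the count was 4241 in Ts1Cje, against 2072 with slide as a block, and 4223 in WT, against 2283 with normexp. Dim members such as Dhx58 are limited by signal over background. The number of arrays limits the precision.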
